A study of Mus musculus with 8 samples.

Results

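Arrays of perigonadal white adipose tissue (pgWAT) were grouped by a measured value, the intensity of the single probe for Cdhr5. The 4 Cdhr5-high arrays lie above an intensity of 400 and the 4 Cdhr5-low arrays at or below it, of 8 arrays in all. By their labels the Cdhr5-high arrays are Con 1 to Con 4, and the Cdhr5-low arrays are FKO 1 to FKO 3 and Con 5. Because a readout chose the sides, everything said of them is a description of these 8 mice, with no test between the sides. Genotype, batch and tissue make-up cannot be told apart as the origin of the split: 7 of the 8 arrays would be placed the same way by their labels, and no slide or date is named.

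The mice were males of strain B6 by their labels (the methods name the Cre line as C57BL/6J), aged 15 weeks by their labels and fed a high-fat diet for 3 days. FKO mice carried Adiponectin-Cre and a floxed Ogt allele, which removes Ogt in adipocytes and leaves the other cells of the depot untouched. Con mice were littermates with the floxed allele and no Cre, so that no mouse lacked the floxed allele. The methods state the numbers of the genotypes the other way round from the labels and legends, and the labels were used here. RNA of 1 depot per mouse was read on an Illumina MouseRef-8 v2.0 array, and values are the deposited normalized intensities, in which background lies near 98.5 and a probe counts as measured where at least 3 arrays lie above 106.1. A gene that falls short of this is called at background.

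Cdhr5 is a protocadherin of the brush border, the carpet of microvilli on absorptive cells of gut and kidney, where it links the tips of neighbouring microvilli. Hdc makes histamine from histidine and is best known from mast cells and the stomach. Gja1 is connexin 43, the most widespread gap junction protein, which joins the cytoplasm of neighbouring cells. None of the 3 is a classical marker of fat cells, and in RNA of a whole depot fewer cells of a type and less RNA per cell cannot be told apart.

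Ogt itself, the targeted gene, followed neither the labels nor the split. Its brightest probe read 188, 264, 199 and 232 on Con 1 to Con 4, against 296, 177 and 260 on FKO 1 to FKO 3 and 267 on Con 5. The sides overlap, and 1 array of the Cdhr5-low side (FKO 2) is the lowest of all. Whether its probes lie in the deleted exons was not settled, and other cells keep their Ogt, so an array is called by its label and no more is read from it. Adipoq, the hormone that defines adipocytes, lay between 9337 and 10670 on Cdhr5-high arrays and between 7496 and 10070 on Cdhr5-low arrays, and 0 of 15 adipocyte markers parted the sides without overlap (2.25% of all genes were higher without overlap, 0.591% lower). Transcripts of the epididymis, the duct that lies against this depot, were present on both sides: Adam7, a gene of epididymal epithelium, read 142, 531, 196 and 221 on Con 1 to Con 4, against 3939, 117 and 7925 on FKO 1 to FKO 3 and 132 on Con 5.

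Cdhr5 read 460, 511, 610 and 717 on Con 1 to Con 4, against 163, 178 and 162 on FKO 1 to FKO 3 and 186 on Con 5. The arrays nearest the dividing level were Con 1 at 460 and Con 5 at 186, with none between them. The medians were 560.2 and 170.3, a ratio of 3.29. These are the values that made the groups and are given only as a description.

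Hdc followed with 663, 706, 795 and 901 on Con 1 to Con 4, against 279, 318 and 243 on FKO 1 to FKO 3 and 317 on Con 5. Within the Cdhr5-high side it kept the order of Cdhr5, lowest on Con 1 and highest on Con 4. Gja1, far brighter, read 4203, 3673, 4735 and 5076 on Con 1 to Con 4, against 2001, 2113 and 1928 on FKO 1 to FKO 3 and 2406 on Con 5. The ratio of the medians, high side over low side, was 2.52 for Hdc and 2.17 for Gja1. Dao, the peroxisomal enzyme that oxidizes D-amino acids, read 236, 340, 292 and 349 on Con 1 to Con 4, against 133, 134 and 151 on FKO 1 to FKO 3 and 139 on Con 5. None of these 4 genes has a second probe on the array.

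**Figure D1:**
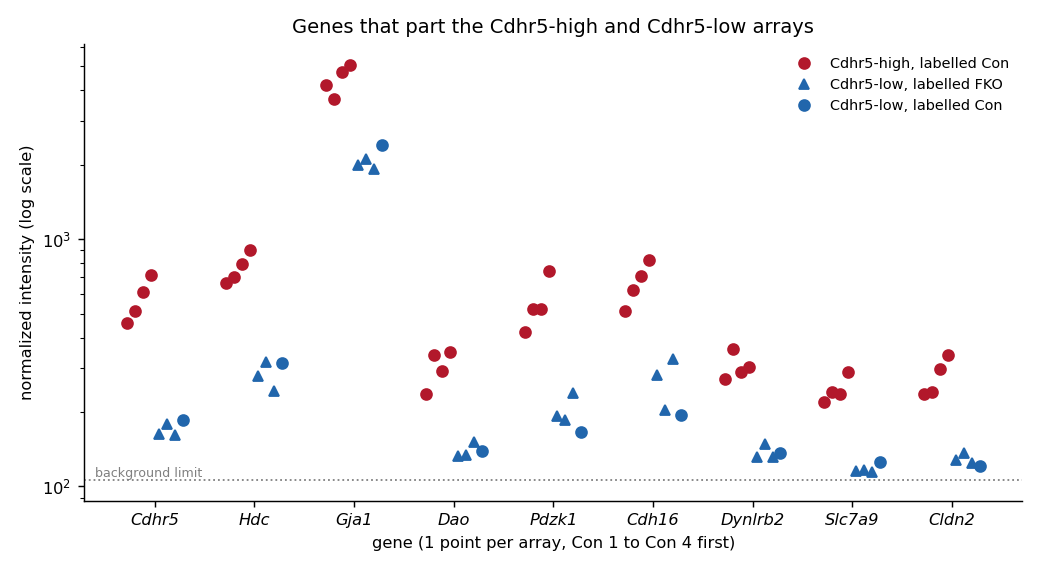
Normalized intensity (log axis) of 9 genes, 1 point per array, with the 4 Cdhr5-high arrays left of the 4 Cdhr5-low arrays in each column; circles are arrays labelled Con and triangles arrays labelled FKO, and the dotted line is the background limit of 106.1. In every column the lowest red point lies above the highest blue point, and the blue circle (Con 5) lies among the triangles or just beside them.

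The promoters of the genes that lead the split are shown because genes that share a level across arrays can be compared for shared sequence. The sequences are RefSeq promoter windows on GRCm38.p6, 5′ to 3′ on the strand of the gene. Cdhr5 lies at chr7:141269080-141276795 and its promoter window at chr7:141276737-141277036 (minus strand). Hdc lies at chr2:126593659-126624025 with its window at chr2:126618629-126618928 (minus strand).
Cdhr5: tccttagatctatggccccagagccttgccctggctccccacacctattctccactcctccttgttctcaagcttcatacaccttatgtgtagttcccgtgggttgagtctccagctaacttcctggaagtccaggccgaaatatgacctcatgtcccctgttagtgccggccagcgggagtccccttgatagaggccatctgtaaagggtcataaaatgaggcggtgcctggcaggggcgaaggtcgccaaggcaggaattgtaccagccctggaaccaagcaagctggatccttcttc
Hdc: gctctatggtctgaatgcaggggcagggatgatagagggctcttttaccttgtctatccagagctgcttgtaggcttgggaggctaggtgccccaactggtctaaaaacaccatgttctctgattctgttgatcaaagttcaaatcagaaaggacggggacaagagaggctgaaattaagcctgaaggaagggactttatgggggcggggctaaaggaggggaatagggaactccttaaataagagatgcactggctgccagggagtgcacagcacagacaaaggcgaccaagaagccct

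Short motifs were searched on both strands of these windows: GTTGCCAT, letters of the X-box read by the RFX factors of ciliated cells, CAAAGTCCA, a site of the kind HNF4 binds, and GTTAATNAT, letters of the HNF1 site. The windows of Cdhr5, Hdc and Gja1 hold none of the 3, which says only that these letters are not in them. Among the 91 genes that parted the sides most clearly (a gap of at least 0.2, defined below), 72 had a promoter in the tables, with 87 windows. The X-box letters stood in 4 of these 87 windows (4.6%), against 442 of 32851 windows of all genes (1.35%). The HNF4 letters stood in 3 of 87 (3.45%), against 0.475% of all windows, and the HNF1 letters in 2 of 87 (2.3%), against 0.801%. Over the windows of all higher genes the shares were 2.99%, 1.71% and 1.71% for the X-box, HNF4 and HNF1 letters, and over the 91 windows of the lower genes they were 0.0%, 2.2% and 1.1%, so that the HNF4 letters were no rarer among the lower genes than among all the higher ones. Such a match is a string of letters and not a shown binding site, and with 2 to 4 windows each the shares are given as counts with no test. The windows below are those of Mlf1 and Hnf4a with the X-box letters in capitals, and of Pdzk1 with the HNF4 letters in capitals. They lie at chr3:67373847-67374146, chr2:163506607-163506906 and chr3:96829815-96830114, all on the plus strand.
Mlf1: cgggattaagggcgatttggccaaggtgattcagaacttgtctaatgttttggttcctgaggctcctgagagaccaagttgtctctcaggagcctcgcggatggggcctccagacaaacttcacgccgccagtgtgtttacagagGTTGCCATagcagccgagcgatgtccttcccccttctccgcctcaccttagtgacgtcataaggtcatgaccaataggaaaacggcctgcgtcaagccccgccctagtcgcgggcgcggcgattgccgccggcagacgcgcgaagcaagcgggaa
Hnf4a: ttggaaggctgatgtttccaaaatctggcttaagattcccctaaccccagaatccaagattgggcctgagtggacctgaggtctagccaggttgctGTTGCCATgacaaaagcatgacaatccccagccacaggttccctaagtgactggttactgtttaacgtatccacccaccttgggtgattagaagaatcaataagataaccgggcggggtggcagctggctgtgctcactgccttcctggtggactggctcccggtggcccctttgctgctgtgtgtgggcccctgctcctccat
Pdzk1: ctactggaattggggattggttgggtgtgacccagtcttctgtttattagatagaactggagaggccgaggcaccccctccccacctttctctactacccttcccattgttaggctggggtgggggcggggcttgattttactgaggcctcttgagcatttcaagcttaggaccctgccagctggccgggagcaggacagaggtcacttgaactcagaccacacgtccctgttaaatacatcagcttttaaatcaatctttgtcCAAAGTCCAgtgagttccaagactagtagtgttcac

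Across the array, 13869 of 25697 probes were measured above background on at least 3 arrays, standing for 9647 genes. A probe parts the sides where its 4 highest or 4 lowest arrays are exactly the Cdhr5-high ones. This held for 276 probes that were higher on Cdhr5-high arrays (1.99% of those measured, 235 genes) and for 94 that were lower (0.678%, 84 genes). Counting 1 probe per gene, the brightest, it was 217 genes higher (2.25%) and 57 lower (0.591%). Any other choice of 4 arrays can also leave probes without overlap, and how many was not counted. The counts above are therefore not read as an excess. Since Cdhr5 chose the sides, genes that vary with it are counted by construction. The filter adds to this: 95 of the 276 higher probes had fewer than 3 low-side arrays above the limit and counted as measured only through the Cdhr5-high arrays.

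The 2 directions were unlike in size. The gap, the distance on the log2 scale after background correction from the lowest array of the upper side to the highest array of the lower side, had a median of 0.11 among the higher probes and 0.02 among the lower. The widest was 1.53 (Cdhr5) among the higher and 0.12 (Stk35) among the lower. With a gap of at least 0.2, 104 higher probes (0.75%) and 0 lower probes (0.0%) were left, and 38 higher probes had a gap of at least 0.5 and 7 of at least 1. Many are dim: 66.7% of the higher and 85.1% of the lower probes stayed under 212.2 on all 8 arrays, against 51.6% of all measured probes, and a ratio between dim intensities understates the ratio of the transcripts.

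**Figure D2:**
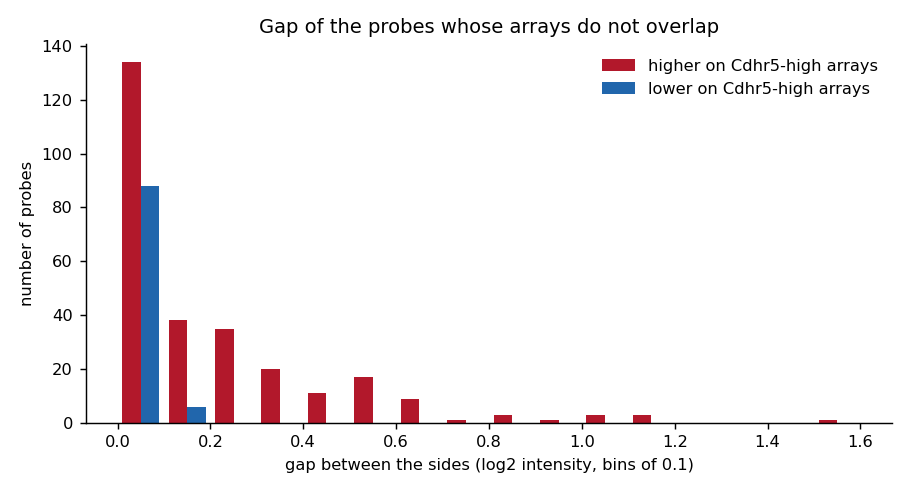
Number of probes (vertical axis, linear) by gap between the sides in log2 units (horizontal axis, bins of 0.1), for the 276 probes higher on Cdhr5-high arrays in red and the 94 lower ones in blue. The lower probes end at 0.12, while the higher ones reach 1.53.

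Of the 91 genes with a gap of at least 0.2, 19 had more than 1 measured probe. In 15 of these every measured probe was higher on all Cdhr5-high arrays. Cldn10 and Drc3 did so with 3 probes each, and Slc7a9, Faah, Igsf11, Mdk and Khk with 2 each. Of the 43 probes of the 19 genes, 38 parted the sides and 40 differed in the same direction. Each gene was picked because at least 1 of its probes had that gap, so these counts partly restate the choice. Beside them, 1.99% of all measured probes were higher without overlap. Wfdc2, a secreted epithelial protein, was split: its bright probe read 320, 387, 307 and 381 on Con 1 to Con 4, against 202, 144 and 220 on FKO 1 to FKO 3 and 155 on Con 5, while the dim one lay between 100 and 111 everywhere.

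The genes with the widest gaps after Cdhr5 and Hdc were Sectm1b, Dynlrb2, Slc7a9, Cldn2, Mmd2, Pdzk1, Iyd, Dnaja4, Dao and Cdh16. Several belong to absorptive epithelium. Pdzk1, the scaffold that holds transporters in the brush border, read 422, 524, 524 and 745 on Con 1 to Con 4, against 192, 185 and 239 on FKO 1 to FKO 3 and 166 on Con 5. Cdh16, the kidney cadherin, read 511, 623, 710 and 825 on Con 1 to Con 4, against 282, 203 and 327 on FKO 1 to FKO 3 and 195 on Con 5. The ratio of medians was 2.78 for Pdzk1 and 2.75 for Cdh16, and both, like Cdhr5 and Hdc, were highest on Con 4.

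Slc7a9, the light subunit of the cystine transporter of kidney and gut, read 220, 240, 236 and 290 on Con 1 to Con 4, against 115, 116 and 114 on FKO 1 to FKO 3 and 126 on Con 5. Cldn2, the claudin that makes tight junctions leaky to cations, read 236, 240, 298 and 339 on Con 1 to Con 4, against 128, 136 and 124 on FKO 1 to FKO 3 and 121 on Con 5. On the low side both came close to the background limit, so that their true ratio is not given by the ratio of intensities. Iyd, which recovers iodide from iodotyrosines, read 199, 225, 242 and 280 on Con 1 to Con 4, against 119, 125 and 124 on FKO 1 to FKO 3 and 126 on Con 5.

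Dynlrb2, a dynein light chain of cilia, read 271, 360, 291 and 305 on Con 1 to Con 4, against 131, 148 and 131 on FKO 1 to FKO 3 and 137 on Con 5. Unlike Cdhr5 it was highest on Con 2. Sectm1b and Mmd2 had gaps of 1.15 and 1.01, and Dnaja4, a co-chaperone of Hsp70, read 380 to 475 on Cdhr5-high arrays and 191 to 228 on Cdhr5-low arrays.

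**Figure D3:**
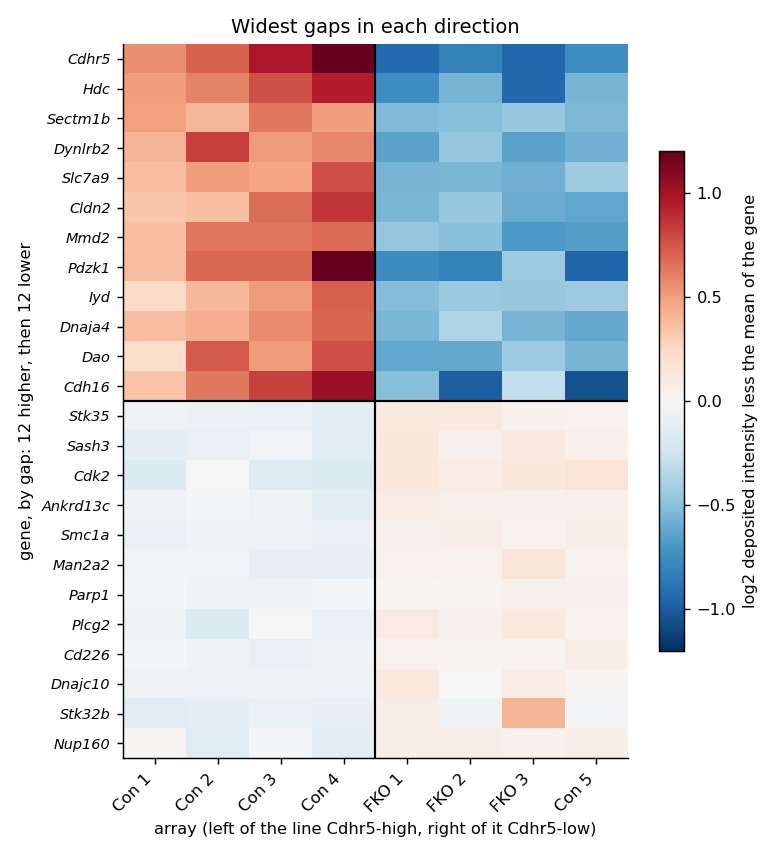
Log2 deposited intensity less the mean of the gene (colour) on each array (columns, with the Cdhr5-high arrays left of the vertical line) for the 12 genes with the widest gaps above and the 12 widest below the horizontal line. The upper rows change colour strongly at the vertical line in every gene, and the lower rows only faintly, apart from Stk32b on FKO 3.

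The 8 genes below were most like Cdhr5 over the 8 arrays by Pearson's r of log2 intensity: Iyd (0.996), Slc7a9 (0.995), Hdc (0.994), Nat8 (0.993), Bbox1 (0.993), Odf3b (0.993), Drc3 (0.991) and B4galnt2 (0.991). These r values mostly restate the distance between the sides, since any probe with 2 tight levels reaches them, and they carry no test. Bbox1, the last enzyme of carnitine synthesis, read 151, 151, 176 and 179 on Con 1 to Con 4, against 110, 110 and 110 on FKO 1 to FKO 3 and 113 on Con 5. Nat8, an acetyltransferase of kidney and liver with near-identical neighbours that its probe may also read, stayed between 113 and 118 on Cdhr5-high arrays and under the background limit on Cdhr5-low arrays.

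The pathway around Cdhr5 moved in part. Of 10 measured genes of the brush border and its tip-link complex, 4 were higher without overlap and 0 lower, beside 2.25% and 0.591% of all genes: Cdhr5, Calml4, Ush1c and Vil1. Cdhr5 made the sides, and Calml4 and Ush1c were among the genes that led by gap. Of the 7 members outside the genes that led by gap or likeness 1 was higher, Vil1, which was measured only through the Cdhr5-high arrays. Ush1c, the scaffold that anchors the tip links, read 162, 175, 181 and 210 on Con 1 to Con 4, against 115, 113 and 122 on FKO 1 to FKO 3 and 112 on Con 5. Calml4, a light chain of the motor in the same complex, read 288 to 316 on Cdhr5-high arrays and 151 to 204 on Cdhr5-low arrays. Vil1, villin, the actin bundler of microvilli, was dim, at 120 to 128 on Cdhr5-high arrays and 98.5 to 103 on Cdhr5-low arrays.

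The direct partner of Cdhr5 in the tip link did not follow. Cdhr2 read 109, 119, 114 and 111 on Con 1 to Con 4, against 136, 108 and 175 on FKO 1 to FKO 3 and 105 on Con 5, which is high on FKO 1 and FKO 3, the arrays with the most Adam7. Espn, another bundler of microvilli, overlapped, with 209 to 323 on Cdhr5-high arrays and 138 to 330 on Cdhr5-low arrays, and so did Ezr, Eps8, Slc9a3r1 and Slc9a3r2. Myo7b and Myo1a, motors of the brush border, were at background. The 7 members outside the genes that led by gap or likeness had a median difference of medians of 0.20 on the log2 scale, against a median near 0 over all measured probes. The part of epididymal transcripts in these values was not tested.

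A wider list of transporters and enzymes of absorptive epithelium, written after part of these values had been seen, had 13 of 29 measured genes higher and 0 lower, beside 2.25% and 0.591% of all genes. Of its 20 members outside the genes that led by gap or likeness, 4 were higher (Hnf4a, Fbp1, Amn and Slc34a1) and 0 lower. Hnf4a lay just outside, with a gap of 0.561. Amn, Nat8 and Slc34a1 were measured only through the Cdhr5-high arrays, which favours a difference in that direction. The 13 were Cldn10, Cdh16, Pdzk1, Fbp2, Dao, Cldn2, Slc7a9, Hnf4a, Fbp1, Bbox1, Amn, Nat8 and Slc34a1. Cldn10, another claudin of leaky epithelia, read 650, 733, 763 and 861 on Con 1 to Con 4, against 456, 339 and 359 on FKO 1 to FKO 3 and 393 on Con 5. Hnf4a, a nuclear receptor that drives the absorptive program of gut, kidney and liver, read 171, 172, 181 and 209 on Con 1 to Con 4, against 115, 118 and 128 on FKO 1 to FKO 3 and 129 on Con 5. Fbp2, a fructose bisphosphatase, read 312 to 380 on Cdhr5-high arrays and 136 to 215 on Cdhr5-low arrays, and its neighbour Fbp1 read 150 to 204 on Cdhr5-high arrays and 112 to 124 on Cdhr5-low arrays.

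The list was far from complete in this tissue. Of its 47 genes on the array, 18 were at background, among them Lrp2, Slc5a2, Slc22a6 and Slc34a2, which define the kidney tubule or other absorptive cells. Car4 and Mme overlapped and were highest on FKO 1 and FKO 3: Car4, a membrane-bound carbonic anhydrase, read 214, 196, 199 and 155 on Con 1 to Con 4, against 509, 218 and 920 on FKO 1 to FKO 3 and 172 on Con 5. Of 13 kidney and intestine marker genes on the array, 9 were at background, including Umod, Aqp2, Fabp2 and Cdx2. Of the 4 measured, Cdh16, Vil1 and Slc34a1 were higher and Cdhr2 overlapped, beside 2.25% of all genes higher and 0.591% lower. Cdh16 was among the genes that led by gap. Vil1 and Slc34a1 were measured only through the Cdhr5-high arrays, so that the filter and that choice largely set this count.

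Genes of motile cilia, the beating hairs of airway, oviduct and efferent duct cells, formed a second group, also listed after some of the values were known. Of 29 measured members 14 were higher and 0 lower, beside 2.25% and 0.591% of all genes, and of the 25 outside the genes that led by gap or likeness 10 were higher. Ccdc113, Pifo and Enkur, all among these 10, were measured only through the Cdhr5-high arrays, which favours a difference in that direction. Besides Dynlrb2, Cdhr3, Odf3b and Drc3 the 14 were Rsph1, Mlf1, Mns1, Nme5, Spag6l, Dnali1, Ccdc114, Ccdc113, Pifo and Enkur. Rsph1, of the radial spoke of the axoneme, read 234, 262, 309 and 354 on Con 1 to Con 4, against 164, 146 and 199 on FKO 1 to FKO 3 and 145 on Con 5. Cdhr3, a cadherin of ciliated airway cells, read 237, 229, 308 and 320 on Con 1 to Con 4, against 123, 161 and 123 on FKO 1 to FKO 3 and 142 on Con 5. Mlf1, a myeloid leukemia factor also made in ciliated cells, read 188 to 221 on Cdhr5-high arrays and 136 to 155 on Cdhr5-low arrays.

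The same list held members that went other ways. Foxj1, the master factor of motile cilia, lay just above the background limit on every array, from 107 to 110, and 15 of the 44 members on the array were at background, with Mcidas, Dnah5 and Hydin among them. Tekt1, Rfx2, Morn5 and Capsl were high on Con 1, Con 3 and FKO 2: Tekt1, a tektin of the axoneme, read 261, 182, 222 and 187 on Con 1 to Con 4, against 117, 218 and 144 on FKO 1 to FKO 3 and 149 on Con 5. Those 3 arrays also have the lowest Ogt. Ak8 and Ccno were highest on FKO 3 and FKO 1, with 199 and 148 for Ak8 and 165 and 133 for Ccno, and followed Adam7. Over the members outside the genes that led by gap or likeness, the median difference of medians was 0.29 for motile cilia and 0.12 for absorptive epithelium.

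**Figure D4:**
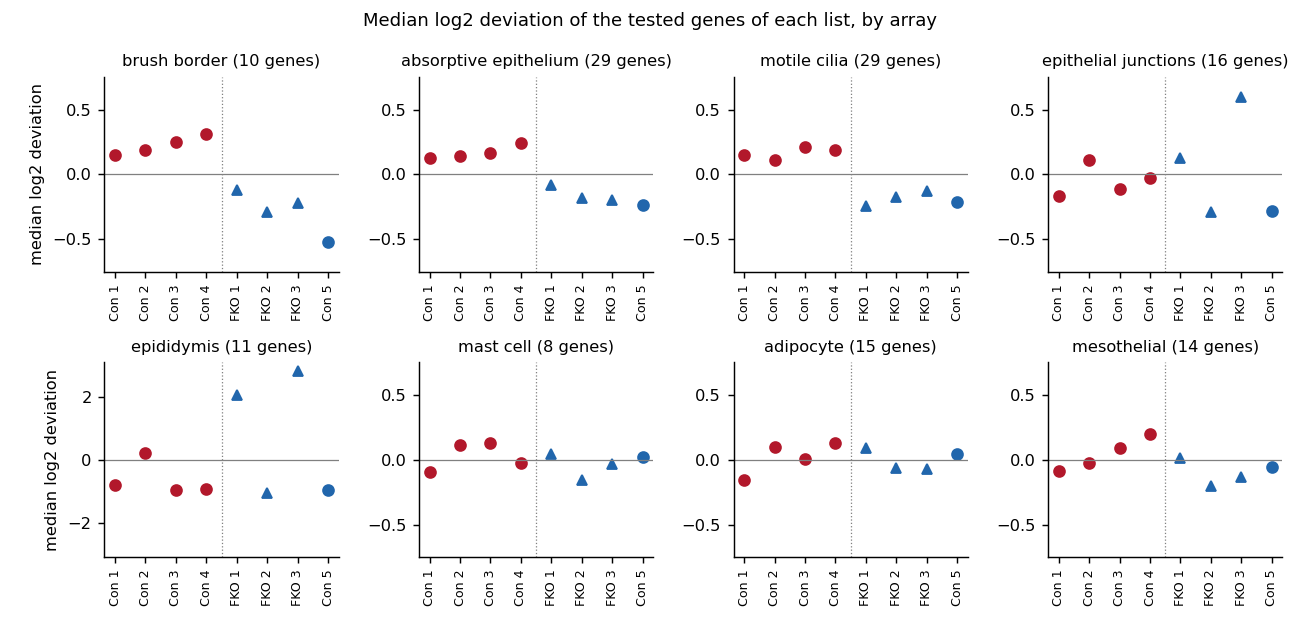
Median log2 deviation from the mean of each gene (vertical axis) over the measured genes of 8 lists, 1 point per array, with the 4 Cdhr5-high arrays left of the dotted line; circles are labelled Con, triangles FKO. Brush border, absorptive epithelium and motile cilia lie above 0 on the left and below 0 on the right, as lists that hold genes chosen for their gap, the epididymis panel has a wider axis and is high on FKO 1 (2.08) and FKO 3 (2.82), and adipocyte genes stay between -0.15 and 0.13.

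Of 16 measured genes of epithelial junctions and keratins, 0 were higher and 0 lower, near the 2.25% and 0.591% of all genes. Cdh1, E-cadherin, the junction protein of epithelia, read 131, 143, 127 and 135 on Con 1 to Con 4, against 201, 112 and 312 on FKO 1 to FKO 3 and 117 on Con 5. Krt8 read 236, 389, 292 and 371 on Con 1 to Con 4, against 404, 149 and 670 on FKO 1 to FKO 3 and 151 on Con 5. Both were highest on FKO 3 and FKO 1 and low on FKO 2 and Con 5. The 11 measured genes of the epididymis list included 0 that parted the sides. The summed intensity of its 23 genes on the array ran from 2340 to 5803 on Cdhr5-high arrays and from 2290 to 29234 on Cdhr5-low arrays. Defb36, a beta-defensin not on that list, did part the sides, with 121 to 151 on Cdhr5-high arrays and 104 to 108 on Cdhr5-low arrays. Its second probe did so too, with a gap of 0.096, and both lay near the background limit on the low side. The high and the low arrays of the listed markers lie on both sides of the split. Their ordering of arrays is therefore not that of the split.

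Markers of other cell types were read in the same way. Of 8 measured mast cell genes only Hdc was higher: Cpa3, carboxypeptidase A of mast cell granules, read 129, 141, 152 and 152 on Con 1 to Con 4, against 169, 122 and 166 on FKO 1 to FKO 3 and 150 on Con 5, and Mcpt4 and Cma1, both chymases, overlapped as well. All 14 mesothelial genes overlapped, although their medians were higher on the Cdhr5-high side in 14 of 14, with a summed intensity of 2978 to 4102 on Cdhr5-high arrays and 2866 to 3696 on Cdhr5-low arrays. Such a lean is not particular to them: it held for 14 of 16 progenitor and fibroblast genes, while macrophage genes had 7 of 17. None of the endothelial (16), macrophage (17), progenitor and fibroblast (16) and brown adipocyte (8) genes parted the sides, which in lists this short is near the share of all genes (2.25% higher, 0.591% lower).

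Histamine genes other than Hdc were dim or absent. Hnmt and Slc18a2, which break histamine down and load it into vesicles, were at background, as were Hrh1, Hrh3 and Hrh4, and the 2 others measured, Aoc1 and Hrh2, overlapped. Of 9 measured genes (connexins, pannexins and the junction scaffold Tjp1) only Gja1 parted the sides, beside 2.25% of all genes higher and 0.591% lower. Gja4 read 196 to 221 on Cdhr5-high arrays and 157 to 211 on Cdhr5-low arrays. Among 6 measured cadherins, Cdh16 and Cdhr3 parted the sides and Cdh1, Cdh3, Cdh5 and Cdh13 did not. Of the 5 genes of D-amino acid oxidation, Dao did, while Ddo, the oxidase of acidic D-amino acids, read 172, 168, 178 and 216 on Con 1 to Con 4, against 147, 153 and 140 on FKO 1 to FKO 3 and 197 on Con 5. For Ddo it is Con 5 alone that overlaps, on the side of the Con label. Hdc, Gja1, Cdh16, Cdhr3 and Dao were all among the genes that led by gap, so the counts of these short lists restate that choice.

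For metabolic programs of the adipocyte, the counts of genes that parted the sides were 0 of 20 for fatty acid synthesis, 0 of 22 for triglyceride storage and lipolysis, 0 of 68 for the mitochondrial ribosome and 0 of 15 for the circadian clock. With 2.25% of all genes higher, counts of 0 in lists of this size say nothing particular about these programs. Peroxisomal genes gave 2 of 41, Nudt19 and Pipox, a share of 4.88% beside the 2.25% of all genes, with Pipox measured only through the Cdhr5-high arrays. The gap of Nudt19 was 0.09, and its second probe overlapped, with 297 to 385 on Cdhr5-high arrays and 294 to 359 on Cdhr5-low arrays. Among 16 glucocorticoid-responsive genes 1 was higher, Lcn2, a secreted iron-trapping protein also made by epithelia, with 701, 1106, 908 and 1102 on Con 1 to Con 4, against 440, 287 and 569 on FKO 1 to FKO 3 and 279 on Con 5. The medians of 15 of these 16 genes were higher on the Cdhr5-high side. Other lists leaned the same way, such as adipose expansion and Wnt antagonists (12 of 13) and extracellular matrix (29 of 38). Some leaned the other way, such as cell cycle (4 of 17) and unfolded protein and integrated stress response (5 of 18). The lean is therefore not particular to glucocorticoid-responsive genes, and it was not tested.

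Genes picked after their values were seen add names to the higher side. Ckb, brain creatine kinase, read 2935, 3761, 3273 and 3494 on Con 1 to Con 4, against 1917, 2155 and 1894 on FKO 1 to FKO 3 and 2018 on Con 5, and Slc6a8, the creatine transporter, read 254 to 322 on Cdhr5-high arrays and 183 to 223 on Cdhr5-low arrays. Faah, the hydrolase that breaks down the endocannabinoid anandamide, read 176, 186, 208 and 224 on Con 1 to Con 4, against 133, 146 and 139 on FKO 1 to FKO 3 and 120 on Con 5 with its brighter probe. Its other probe parted the sides too, with 151 to 175 on Cdhr5-high arrays and 119 to 136 on Cdhr5-low arrays. Alox12, a lipoxygenase of arachidonic acid, read 255 to 427 on Cdhr5-high arrays and 154 to 197 on Cdhr5-low arrays, and Adgrg2, a receptor of the efferent ducts, read 220 to 304 on Cdhr5-high arrays and 140 to 184 on Cdhr5-low arrays.

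Genes lower on Cdhr5-high arrays differed by little. Cdk2, the kinase of the S phase of the cell cycle, read 214, 238, 215 and 212 on Con 1 to Con 4, against 262, 255 and 261 on FKO 1 to FKO 3 and 267 on Con 5. Sash3, an adaptor of lymphocytes, read 143, 145, 150 and 141 on Con 1 to Con 4, against 168, 160 and 166 on FKO 1 to FKO 3 and 161 on Con 5. Smc1a, of the cohesin ring, read 160 to 165 on Cdhr5-high arrays and 175 to 179 on Cdhr5-low arrays. The median of Cdk2 on the low side was 1.22 times that on the high side, and that ratio was 1.14 for Sash3 and 1.12 for Stk35, the gene with the widest gap in this direction. Of 17 measured cell cycle genes 0 parted the sides, which in a list this short is near the share of all genes (2.25% higher, 0.591% lower).

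The arrays as wholes did not fall into the sides. Over all measured probes Pearson's r between arrays ran from 0.975 to 0.995 among the 6 pairs of Cdhr5-high arrays, from 0.947 to 0.986 among the 6 pairs of Cdhr5-low arrays and from 0.949 to 0.996 among the 16 pairs between them. The most alike pair of all, Con 1 and FKO 2 (0.996), lies across the split, and Con 5 was nearest to Con 2 (0.986). None of the first 5 principal components separated the sides, although they hold from 53.8% of the variance in the first to 4.46% in the fifth.

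**Figure D5:**
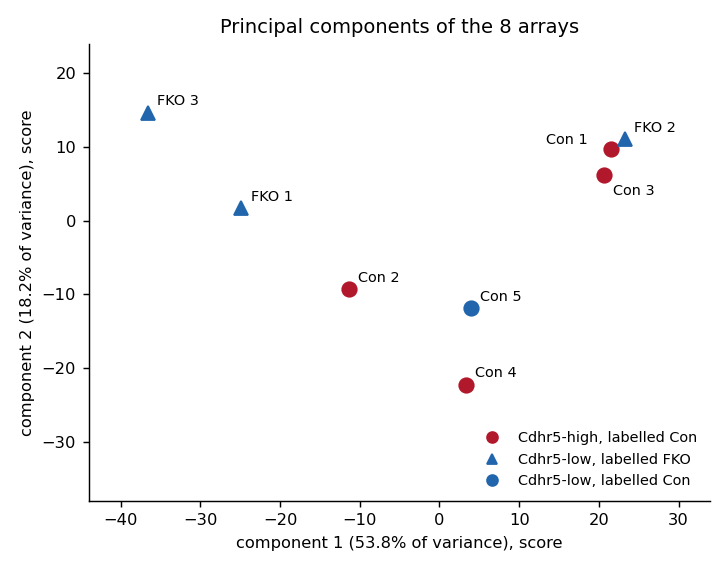
Scores of the 8 arrays on the first principal component (horizontal, 53.8% of variance) and the second (vertical, 18.2%) over all measured probes; red circles are Cdhr5-high arrays, blue triangles the Cdhr5-low arrays labelled FKO and the blue circle Con 5. FKO 2 lies beside Con 1 and Con 3, FKO 1 and FKO 3 lie apart at the left, and the colours do not separate on either axis.

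The higher genes were spread over the genome. The share of measured genes higher on Cdhr5-high arrays ran from 0.459% on chromosome 18 to 3.72% on chromosome 3 among the autosomes and X, with 3.39% on chromosome 7, which carries Cdhr5. The longest runs of neighbouring measured genes that were all higher held 2 genes each, such as Fbp2 with Fbp1, Slc7a9 with Nudt19 and Acsbg1 with Dnaja4.

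The comparison that the labels define, FKO over Con, has other groups, with Con 5 on the Con side. By limma with Benjamini-Hochberg adjustment 0 of 13869 probes passed (0.0%), with 318 higher and 274 lower at an unadjusted p under 0.05. The methods' t-test (unadjusted p under 0.01, over 1.5-fold) called 0 higher and 1 lower, Gja1. It was run here on background-corrected, renormalized log2 values of the measured probes, while the methods name quantile-normalized data. The paper reports far more genes in both directions at these thresholds, and why the counts differ was not tested. Cdhr5 had a log2 fold change of -1.68 (standard error 0.44, limma adjusted p = 1.00), and the values were -1.32 for Hdc, -0.96 for Gja1 and -1.12 for Dao. The exact permutation test over the 56 label assignments (two-sided, smallest possible p 0.0179) gave p = 0.0536 for Cdhr5, 0.0536 for Hdc, 0.0357 for Gja1 and 0.0714 for Dao, unadjusted. Without Con 5 the label groups are the Cdhr5-low and Cdhr5-high arrays themselves, so that the 15 lower and 0 higher probes limma then called rest on the values that chose the sides and are no test. Leaving out FKO 2 gave 191 higher and 2 lower. The FKO arrays left were then FKO 1 and FKO 3, with Adam7 at 3939 and 7925 against 117 on FKO 2. The part of epididymal transcripts in these calls was not tested. Because Cdhr5 was singled out for a pattern that nearly repeats the labels, the values of the label comparison are no independent support for the split or for the labels.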

How the data were processed

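pgWAT RNA of 8 mice, 3 labelled FKO and 5 labelled Con, was read on 1 array each. The deposited values are normalized probe intensities on a linear scale, which the authors quantile-normalized; the software and any background step are not given in the sources used here. A second table of non-normalized signals was not used, because none of its 16 per-sample columns names a sample.

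Of 25697 probes, 23978 had 1 gene symbol by the platform annotation, 0 had several and 1719 had none, and 23962 were matched to GRCm38.p6 by Entrez ID. The background mode was 98.5 and its limit 106.1, and 13869 probes lay above it on at least 3 arrays. Printed levels are the deposited intensities. Gaps, differences and fits used log2 values after normexp (offset 50) and quantile normalization, in R 4.3.3 with limma 3.58.1. Arrays were put on a side by the Cdhr5 intensity (level 400), and the sides were compared by overlap, gap and median; the fit that leaves out Con 5 has the same arrays as the sides and was not read as a test. A list takes the brightest probe of each gene. FKO and Con were compared by lmFit and eBayes (two-sided, adjusted p threshold 0.05). Pearson's r was taken over log2 values, and promoters and motifs were read from RefSeq windows.

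Named genes are the markers, Ogt, Dao and Ddo, the 12 widest gaps in each direction, the 8 genes most and least like Cdhr5, and up to 3 members of each list with the widest gap. Further list members and other genes were named after their values were seen. The members and lists were chosen with earlier results of these data known, and 3 lists (motile cilia, absorptive epithelium, epithelial junctions) after part of the values had been seen. The number of arrays limits the precision, and p-values reflect only how these mice vary. The code was tested on simulated data. Alternatives were no background correction, centring, other filters on dim probes, a minimum gap, the replicate number as a block, trended and robust eBayes, the methods' t-test and leaving out each array, with 1 added after seeing the data. Figures were drawn with matplotlib 3.10.9.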

Additional observations from a re-analysis of the deposited data

Results flagged for a closer look

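Among the 5 arrays labelled Con, Con 5 stood far from the others in 2 of the 27 named genes examined, by the ratio of its gap to the nearest array to the whole range of the group. Sectm1b read 113 on Con 5, against 217 to 254 on Con 1 to Con 4, and the ratio was 0.737. Dnajc10 read 107 on Con 5, against 102 to 103 on Con 1 to Con 4, and the ratio was 0.746. The critical value for 5 arrays is 0.71, and chance passes it in about 1 of 20 groups. Both genes were named because they part the sides, which places Con 5 away from the other Con arrays by construction.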

How the results depend on the processing

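Membership of the sides was the same after background correction, with 4 arrays above the widest gap. A second Cdhr5 probe could not be tried, since the array has none. Against 276 higher and 94 lower probes, there were 276 and 94 with no background correction, 278 and 97 with centring in place of quantile normalization, 454 and 269 with no filter on dim probes, 79 and 12 with the filter at 2 times the limit, and 104 and 0 with a gap of at least 0.2. Leaving out 1 array at a time gave 342 to 628 higher and 169 to 343 lower. Leaving out Con 2, FKO 1 and FKO 3 together, an alternative chosen after seeing the data, gave 1251 and 1239. Fewer arrays can only add probes that do not overlap, so these larger counts are not read as a clearer split. Under both list alternatives (no background correction, all probes of a gene) the count of higher members stayed within 1.5 times in 39 of 39 lists, with motile cilia at 17 and absorptive epithelium at 18 when all probes of a gene were read.

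Between FKO and Con, limma called 0 probes under every other normalization and filter, and 0 to 191 higher and 0 to 15 lower with 1 array left out. The methods' t-test, run on the processed values and not on the paper's own input, called 0 higher and 1 lower, and 0 after Benjamini-Hochberg adjustment. Cdhr5 lay between -2.05 and -1.50, Hdc between -1.60 and -1.19, Gja1 between -1.14 and -0.87 and Dao between -1.40 and -0.98 with 1 array left out. The 15 lower calls came without Con 5, when the label groups coincide with the sides that Cdhr5 chose, and are no test; the 191 higher came without FKO 2, and the cause was not tested. Replicate numbers are shared by FKO and Con, and the labels name no pairs. Deviations of same-numbered arrays from their group means had r of -0.562, -0.702 and -0.412. Differently numbered arrays were not compared, so these values cannot show whether arrays were paired. With the replicate block 0 higher and 0 lower probes were called, with 41 and 169 at an unadjusted p under 0.05, and Cdhr5 had -1.93 (adjusted p = 0.516).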
